A study of Homo sapiens with 4 samples.

Results

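The genes described here are the 7 inhibitors of cyclin-dependent kinases of the CIP/KIP and INK4 families and the 3 D-type cyclins. They were chosen by gene symbol, and all 10 had a row among the 48162 Ensembl genes of the deposited count table. The 10 genes and the lists of related genes below were chosen with earlier results of these data known. All libraries were made from NCI-H1703, a lung cancer line of human origin. EGFR-AS1, a long noncoding RNA antisense to EGFR, was overexpressed in 2 of them, and the pCDNA vector alone was present in 2, with sets lettered A and B in each group. Cells of both groups were kept under hygromycin (100 µg/ml) in RPMI with 10% serum, at passages 20 to 31 per the labels, and nothing in the labels tells whether a line was 1 clone or a pool. Nor do they state that sets A and B came from separate cultures; p-values therefore reflect only the spread between these libraries, which may be technical.

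Cyclin-dependent kinases drive the cell cycle when bound to cyclins. D-type cyclins activate CDK4 and CDK6 in the G1 phase, and these kinases phosphorylate the retinoblastoma protein, which frees E2F transcription factors to switch on genes of DNA replication. INK4 proteins bind CDK4 and CDK6 alone and keep D-type cyclins off them. CIP/KIP proteins bind a wider set of cyclin and kinase complexes, CDK2 included. In lung cancer the INK4 locus on chromosome 9 is often lost or silenced, and D-type cyclins are often raised.

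The overexpression libraries held 32680467 and 33750041 counted reads, and the vector libraries 41518275 and 32601449. EGFR-AS1 had 670 and 586 reads in overexpression sets A and B, against 59 and 37 in vector sets A and B. The mesenchymal gene VIM was at 1764 to 2016 CPM (reads per 1e+06 counted reads, scaled with TMM factors) in the 4 libraries, while the epithelial genes EPCAM and CDH1 had 2 to 8 reads in any library. The leukocyte gene PTPRC and the hepatocyte gene ALB had at most 3 reads in any library. The fibroblast gene COL1A1 was at 10.51 and 10.99 CPM in the overexpression libraries, against 8.45 and 4.89 CPM in the vector libraries, and COL3A1 at 1.33 and 0.891 CPM, against 0.236 and 0.508 CPM. COL3A1 was called higher (edgeR). The epithelial keratin KRT18 averaged 31.0 CPM with overexpression and 75.3 CPM with vector, and KRT8 2.58 and 5.499 CPM, both called lower. The mesenchymal genes CDH2 (2.17 CPM with overexpression, 0.269 with vector) and FN1 (5.23 and 1.17 CPM) were called higher. The keratin KRT19 had at most 9 reads in any library. The part of these shifts in the results below was not tested. EGFR, the gene antisense to EGFR-AS1, was at 403 and 429 CPM in the overexpression libraries, against 334 and 394 CPM in the vector libraries. It was not called (log2 difference 0.19, SE 0.12, 95% interval -0.07 to 0.45, edgeR adjusted p = 0.352).

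Of the 10 genes, CDKN2B and CDKN2D were higher in EGFR-AS1 overexpressing cells, CCND2 was lower, and 7 did not pass the test (edgeR quasi-likelihood test, adjusted p under 0.05 over all 16106 genes tested). All 10 passed the filter on low counts. Over all tested genes 14.5% were called, 7.8% higher and 6.67% lower, so a call in 3 of 10 genes is set against that background and carries no test of its own. The libraries of the groups did not overlap for 5 of the 10 genes, against 55.5% of all tested genes. With a log2 change of at least 1 also required, CDKN2B alone of the 10 was called, against 5.59% of all tested genes. In such bulk libraries fewer cells with a transcript and less transcript per cell cannot be told apart. The median log2 fold change was 0.22 over the 10 genes and 0.00 over all tested genes.

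**Figure D1:**
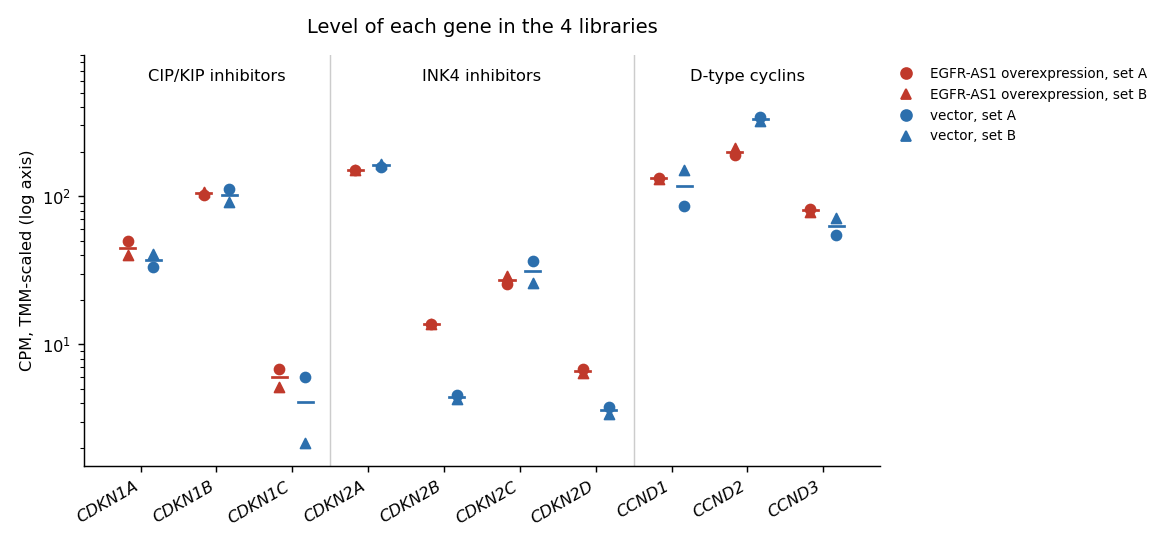
Level of each of the 10 genes in the 4 libraries, in TMM-scaled CPM on a log axis. Circles are set A, triangles set B and short bars the mean of 2 libraries. CDKN2B and CDKN2D lie higher in both overexpression libraries than in both vector libraries, CCND2 lies lower, and the vector libraries lie far apart for CDKN1C and CCND1.

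CDKN2B, which encodes the INK4 protein p15 and is known as a gene induced by TGF-beta, had the largest change of the 10. It had 452 and 461 reads in overexpression sets A and B, against 193 and 134 in vector sets A and B. Scaled for depth, these were 13.7 and 13.7 CPM in the overexpression libraries and 4.55 and 4.25 CPM in the vector libraries. Both overexpression libraries lay above both vector libraries, and the libraries of a group lay close together. The mean was 13.7 ± 0.0263 CPM with overexpression and 4.403 ± 0.213 CPM with vector (SD, n = 2 each), a 3.10-fold rise with a 95% interval of 2.35 to 4.08. On the log2 scale the rise was 1.63 (SE 0.19, edgeR adjusted p = 2.07e-05), and the gene ranked 170 of 16106 by p.

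CDKN2A lies beside CDKN2B on the same strand of chromosome 9, and its count pools transcripts from a start for the INK4 protein p16 and from an upstream start for ARF, a protein that acts on MDM2. It was at 150 and 149 CPM in the overexpression libraries, against 158 and 165 CPM in the vector libraries. The groups did not overlap, but the log2 difference was -0.11 (SE 0.12, edgeR adjusted p = 0.579), with a 95% interval of -0.36 to 0.13. The log2 value of CDKN2B lies outside that interval. Per 100 reads of CDKN2A there were 9.12 and 9.17 reads of CDKN2B with overexpression, against 2.88 and 2.57 with vector.

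CDKN2B lies within the span of the antisense RNA gene CDKN2B-AS1, known as ANRIL, but none of its exonic bases lie under opposite-strand exons in GENCODE 29. CDKN2A has 7.88% of its exonic bases under such exons. CDKN2B-AS1 had 57 and 47 reads in the overexpression libraries and 59 and 44 in the vector libraries, which differed by 0.16 on the log2 scale (SE 0.31, edgeR adjusted p = 0.798). Library preparation kept the strand, yet how HTSeq treated it is not stated in the labels, and reads of overlapping genes may not be told apart.

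CDKN2D, which encodes the INK4 protein p19, also rose. It had 226 and 216 reads in overexpression sets A and B, against 161 and 106 in vector sets A and B. The levels were 6.83 and 6.41 CPM in the overexpression libraries and 3.798 and 3.36 CPM in the vector libraries, with no overlap. The fold was 1.84, with a 95% interval of 1.34 to 2.53 (log2 fold change 0.88, SE 0.22, edgeR adjusted p = 0.0105). The call was lost with either overexpression library left out, at an edgeR adjusted p of 0.108 without set A and 0.0612 without set B, while the log2 fold change stayed at 0.83 and 0.93. Over the 11 alternatives the adjusted p ran from 0.000582 to 0.108.

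CDKN2C, which encodes the INK4 protein p18, was at 25.3 and 29.1 CPM in the overexpression libraries, against 36.6 and 25.9 CPM in the vector libraries. The groups overlapped, because vector set B lay between the overexpression libraries. The log2 difference was -0.20 (SE 0.17; 95% interval -0.56 to 0.15), at an edgeR adjusted p of 0.482. Vector set A decided its direction: the log2 value was 0.07 without that library and -0.43 without vector set B, where the edgeR adjusted p was 0.0427 (0.0427 to 0.864 over the alternatives).

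The stretches before the starts of both INK4 genes that rose, and before the p16 start of CDKN2A, which did not pass, are shown to set the neighbours on chromosome 9 and the gene on chromosome 19 side by side. Each is the 250 bases before a RefSeq start (build GRCh38.p14), 5′ to 3′ on the strand of the gene, with capitals for GGGCGG or its reverse complement, the GC box that SP and KLF factors bind. CDKN2B is chr9:22009306-22009555, minus strand; CDKN2D is chr19:10568980-10569229, minus strand; CDKN2A is chr9:21974858-21975107, minus strand.
CDKN2B: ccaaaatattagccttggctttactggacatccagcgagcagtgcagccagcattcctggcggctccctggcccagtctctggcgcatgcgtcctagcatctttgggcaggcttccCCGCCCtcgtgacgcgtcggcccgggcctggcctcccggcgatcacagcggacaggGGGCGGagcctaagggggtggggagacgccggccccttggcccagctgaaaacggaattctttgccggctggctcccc
CDKN2D: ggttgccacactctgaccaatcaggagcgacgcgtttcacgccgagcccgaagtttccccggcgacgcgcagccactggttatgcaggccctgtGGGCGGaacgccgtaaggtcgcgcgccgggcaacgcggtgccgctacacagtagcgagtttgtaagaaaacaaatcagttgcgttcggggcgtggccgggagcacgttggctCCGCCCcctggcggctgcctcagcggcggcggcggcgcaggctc
CDKN2A: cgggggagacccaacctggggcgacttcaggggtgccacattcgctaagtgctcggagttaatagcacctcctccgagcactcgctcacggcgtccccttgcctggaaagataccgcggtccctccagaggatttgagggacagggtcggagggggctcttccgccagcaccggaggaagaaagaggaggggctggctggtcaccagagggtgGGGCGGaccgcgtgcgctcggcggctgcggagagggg
The CDKN2B and CDKN2D stretches hold 2 GC boxes each and the CDKN2A stretch holds 1. Of 35116 stretches of the same length in the RefSeq table, 42.6% hold at least 1 and 24.3% at least 2, counted on both strands with overlaps allowed. None of the 3 stretches holds the E-box CACGTG (6.34% of all), the cyclic AMP response element TGACGTCA (1.65%) or an E2F element spelled TTTCCCGC or TTTGGCGC (1.93%). G and C make up 66.4% of the CDKN2B stretch, 67.6% of the CDKN2D stretch and 66.8% of the CDKN2A stretch, against a median of 58.0% over all. These are matches of letters, and no binding was measured. Stretches were matched for 7 of the 10 genes. Among the others that did not pass, GC boxes numbered 4 for CDKN1A and 1 for CDKN1B. By start they numbered 0, 5 and 1 for CDKN2C and 5, 2 and 0 for CCND3. The upstream start of CDKN2A had 0.

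Among the D-type cyclins CCND2 fell and the others did not pass. CCND2 encodes cyclin D2 and had 6283 and 7093 reads in overexpression sets A and B, against 14582 and 10164 in vector sets A and B. The levels were 190 and 211 CPM in the overexpression libraries and 344 and 323 CPM in the vector libraries, so both overexpression libraries lay well below both vector libraries. Means were 200.2 ± 14.7 CPM with overexpression and 333 ± 15.2 CPM with vector (SD, n = 2 each). The level fell by 0.74 on the log2 scale (SE 0.12, edgeR adjusted p = 0.000506), which is 0.601 times the vector level with a 95% interval of 0.504 to 0.716. CCND2 was among the more abundant genes, with 4.14% of tested genes above its mean CPM.

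CCND3, which encodes cyclin D3, was at 82.1 and 78.7 CPM in the overexpression libraries, against 54.8 and 71.4 CPM in the vector libraries. The groups did not overlap, and the vector libraries differed more from each other than the overexpression libraries did. The log2 difference was 0.35 (SE 0.13, 95% interval 0.06 to 0.64), and it missed the threshold (edgeR adjusted p = 0.0995; the alternatives gave 0.00157 to 0.432). It passed without vector set B, with a log2 value of 0.55.

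CCND1, which encodes cyclin D1, was at 133 and 131 CPM in the overexpression libraries, against 85.2 and 151 CPM in vector sets A and B. Both overexpression libraries lay between the vector libraries, of which set A was at 0.566 times set B. The log2 difference was 0.16 (SE 0.19; 95% interval -0.23 to 0.56), at an edgeR adjusted p of 0.628. With vector set A left out it was -0.19, and with vector set B left out it was 0.63 (edgeR adjusted p = 8.65e-05, against 0.894 at the other end of the alternatives). Its direction thus turned without vector set A, and a call appeared without vector set B. By GENCODE 29, 10.3% of the exonic bases of CCND1 lie under exons of LTO1 on the opposite strand. LTO1 was at 20.5 and 21.1 CPM in the overexpression libraries and 18.9 and 20.6 CPM in the vector libraries.

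None of the 3 CIP/KIP genes passed the test. CDKN1B encodes p27, which is controlled largely through its breakdown, and it was at 102 and 107 CPM in the overexpression libraries, against 113 and 91.1 CPM in the vector libraries. Its groups overlapped, at 0.04 on the log2 scale (SE 0.13; 95% interval -0.23 to 0.31; edgeR adjusted p = 0.884). In fold terms the interval runs from 0.852 to 1.24.

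CDKN1A encodes p21, the inhibitor best known for halting the cycle after DNA damage. It was at 50.1 and 39.9 CPM in overexpression sets A and B, against 33.2 and 40.7 CPM in vector sets A and B. Overexpression set B lay below vector set B, so the groups overlapped. The log2 difference was 0.28 (SE 0.15; 95% interval -0.03 to 0.60), at an edgeR adjusted p of 0.243, and it passed in 1 of 11 alternatives, without vector set B (log2 value 0.44, edgeR adjusted p = 0.0339, 0.0339 to 0.872 over the alternatives).

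CDKN1C encodes p57 and is an imprinted gene of chromosome 11. It had 227 and 174 reads in overexpression sets A and B, against 255 and 68 in vector sets A and B, or 6.86 and 5.17 CPM against 6.02 and 2.16 CPM. Vector set A lay 2.79-fold above vector set B, the widest gap within a group among the 10 genes. The log2 difference of 0.53 (SE 0.33, 95% interval -0.18 to 1.24, edgeR adjusted p = 0.338) rested on vector set B, the lowest library. It was 1.47 without vector set A (edgeR adjusted p = 5.00e-07) and -0.0025 without vector set B (0.996, the highest value over the alternatives).

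**Figure D2:**
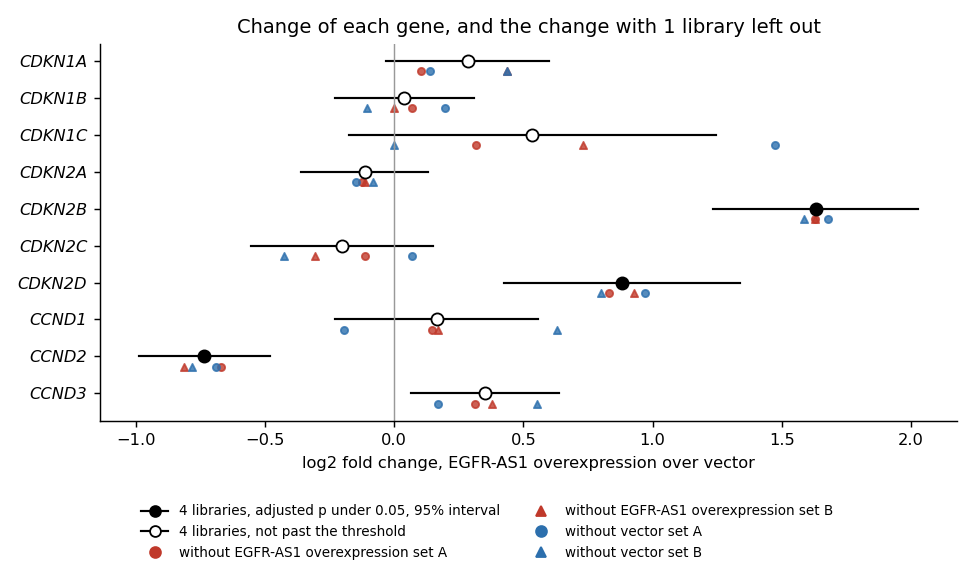
Log2 fold change of each gene, overexpression over vector, with its 95% interval over 4 libraries; filled circles passed the edgeR threshold. Small coloured marks show the same value with 1 library left out. Those of CDKN2B (1.58 to 1.68), CDKN2D (0.80 to 0.97) and CCND2 (-0.81 to -0.67) stay near the main value, and those of CDKN1C and CCND1 spread with the vector library left out.

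Levels of different genes were compared as CPM per kilobase of summed exonic length. The order with overexpression was CDKN1B (37.3 ± 1.34), CDKN2A (34.5 ± 0.0627), CCND2 (27.97 ± 2.06) and CCND1 (27.3 ± 0.188 CPM per kilobase; SD, n = 2). With vector it was CCND2 (46.6 ± 2.12), CDKN2A (37.4 ± 1.18), CDKN1B (36.2 ± 5.39) and CCND1 (24.4 ± 9.58 CPM per kilobase). CCND2 and CCND1 did not differ beyond their spread with overexpression, nor did CDKN2A and CDKN1B with vector. At the low end lay CDKN2D (4.404 with overexpression, 2.38 with vector), CDKN2B (3.37 and 1.08) and CDKN1C (2.43 and 1.65 CPM per kilobase). The order at the top depends on the length used. Over the longest coding transcript, CDKN2A was the highest of the 10 in both groups, at 116 CPM per kilobase with overexpression and 126 with vector, because that transcript is 1283 bases against 4329 bases of summed exons.

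CCND2 made up 38.9% and 41.9% of the summed D-type cyclin level in the overexpression libraries, against 64.0% and 50.9% in the vector libraries. The share of CCND1 was 40.3% and 38.7% with overexpression, against 23.5% and 35.2% with vector. That of CCND3 was 20.8% and 19.3%, against 12.6% and 13.9%. The 3 shares of a library add up to the whole, so a fall in 1 share raises the sum of the others. In CPM, CCND1 itself overlapped between the groups. Over the longest coding transcript CCND3 had the largest share with overexpression, at 36.3% and 34.3%, against 23.9% and 26.02% with vector. On that length CCND2 took 31.0% and 33.9% with overexpression, against 55.4% and 43.4% with vector, and CCND1 32.6% and 31.8%, against 20.7% and 30.5%. Over summed exonic length, the summed level of the D-type cyclins was 68.1 and 70.2 CPM per kilobase with overexpression and 75.2 and 88.6 with vector. Over the longest coding transcript it was 94.4 and 95.9 with overexpression and 95.8 and 114.6 with vector, so there the groups overlapped. Without any length, there were 1.43 and 1.60 CCND2 reads per CCND1 read with overexpression, against 4.04 and 2.14 with vector.

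Within the INK4 family, CDKN2B made up 6.71% and 6.63% of the summed level in the overexpression libraries, against 2.19% and 2.13% in the vector libraries. The share of CDKN2D was 9.06% and 8.39% with overexpression, against 4.94% and 4.54% with vector. CDKN2A held the largest share in every library, at 68.98% and 67.8% with overexpression and 71.3% and 77.5% with vector. Over summed exonic length, the summed INK4 level was 50.1 and 50.9 CPM per kilobase with overexpression, against 51.2 and 49.3 with vector, so the groups overlapped. On the other length they did not, at 133.6 and 134.3 with overexpression against 139.7 and 141.3 with vector. Over the longest coding transcripts the share of CDKN2B was 2.61% in both overexpression libraries and 0.833% and 0.770% in the vector libraries.

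**Figure D3:**
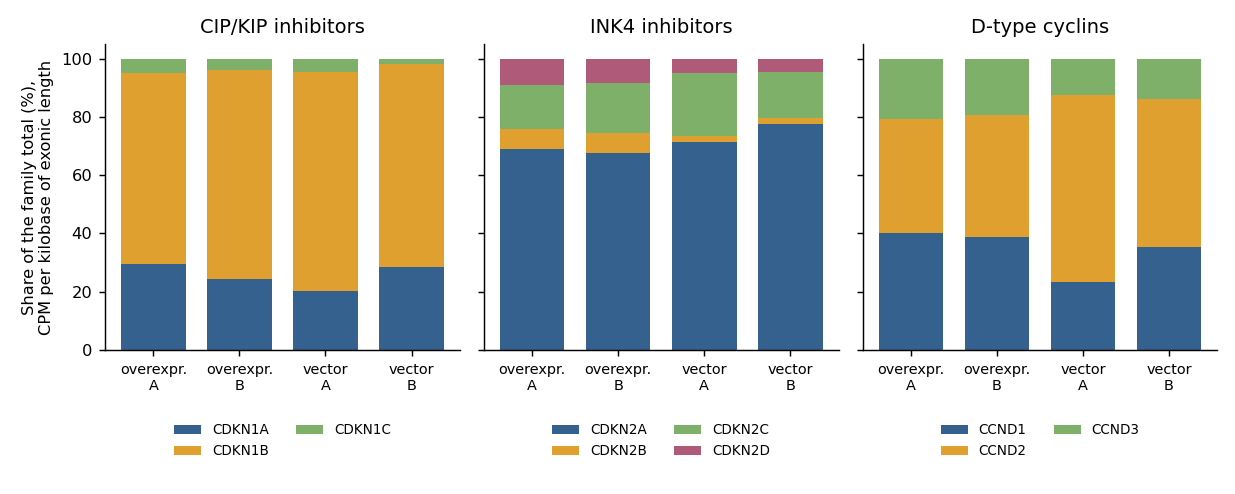
Share of each gene in the summed level of its family, in percent of CPM per kilobase of exonic length, for the 4 libraries. CCND2 takes 38.9% and 41.9% of the D-type cyclin level with overexpression and 64.0% and 50.9% with vector, and CDKN1B takes 65.4% to 75.04% of the CIP/KIP level in all 4.

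The genes that changed did not share a chromosome: CDKN2B lies on chromosome 9, CDKN2D on 19 and CCND2 on 12. For each gene the 5 nearest tested coding genes on either side, in GENCODE 29 order, were set beside it. Around CCND2 the median log2 fold change of those 10 neighbours was -0.09, with 0 lower and 1 higher called, beside -0.74 at CCND2 itself. Around CDKN2B it was 0.30, with 2 higher and 0 lower called, and around CDKN2D it was -0.06, with 1 higher and 0 lower called. Over 25 neighbours on either side (fewer where the chromosome ended), the medians were -0.07 for CCND2, 0.02 for CDKN2B and -0.04 for CDKN2D. Both INK4 genes that rose had a strongly raised gene as the next on 1 side in that order, which skips untested genes and gives no distances. Beside CDKN2B it was ELAVL2, a neuronal RNA-binding protein gene, at 3.53 and 3.41 CPM with overexpression against 0.165 and 0.222 with vector. Beside CDKN2D it was AP1M2, an epithelial clathrin adaptor gene, at 1004 and 1097 reads with overexpression against 72 and 63 with vector. On the other side lay CDKN2A for CDKN2B (log2 value -0.11) and KRI1 for CDKN2D (-0.04), and neither was called. ELAVL2 was also 2 places from CDKN2A, which did not pass. ELAVL2 and AP1M2 were singled out after their values were seen, and any part they have in the INK4 counts was not tested.

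**Figure D4:**
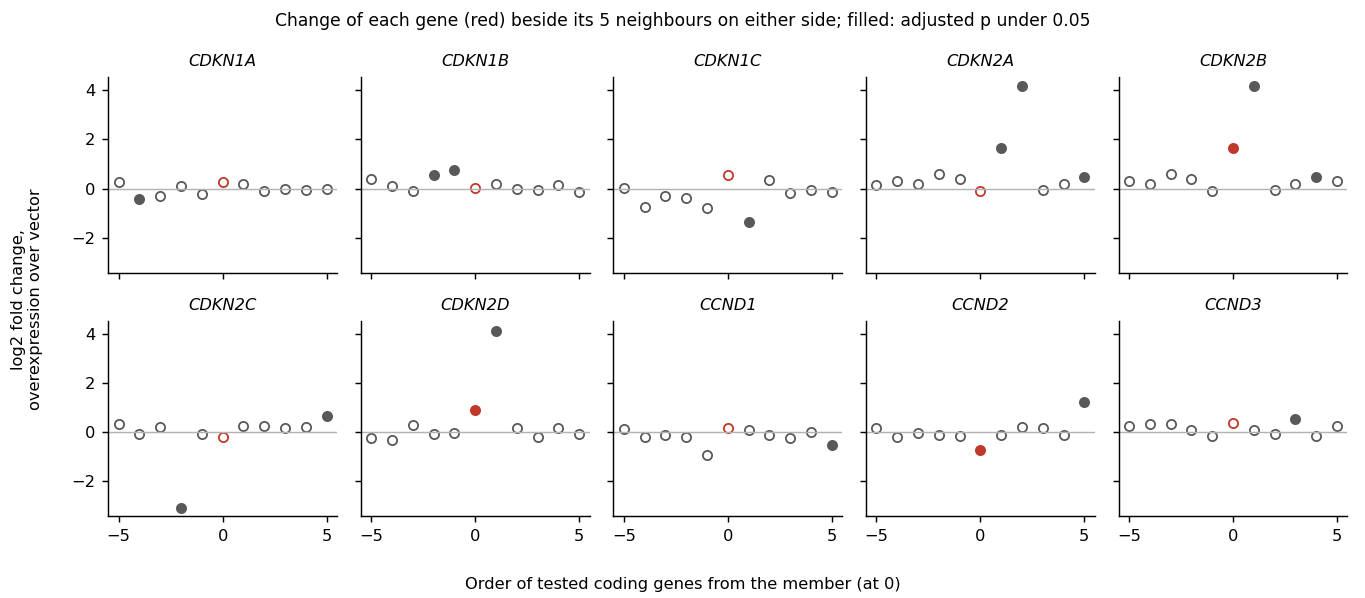
Log2 fold change of each of the 10 genes (red, at 0) and of the 5 nearest tested coding genes on either side, by their order on the chromosome; filled circles had an adjusted p under 0.05. The fall of CCND2 and the rises of CDKN2B and CDKN2D stand beside neighbour medians of -0.09, 0.30 and -0.06.

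Among 18 genes of the kinases, later cyclins and their switches, 1 was higher and 3 were lower (22.2% called, against 14.5% of all tested genes), with a median log2 fold change of 0.14. CDK6, a partner of D-type cyclins, was at 106 and 118 CPM with overexpression and 144 and 172 CPM with vector, and fell by 0.50 on the log2 scale (SE 0.13, edgeR adjusted p = 0.0133; 0.221 without overexpression set A, the highest over the alternatives). CDK4, the other partner, was at 188 and 187 CPM with overexpression and 203 and 244 CPM with vector (log2 difference -0.25, SE 0.12, edgeR adjusted p = 0.211). CDK2 and CDK1, kinases of later phases, had log2 differences of 0.03 and 0.29 (edgeR adjusted p = 0.925 and 0.133), and CDK1 passed without vector set B (0.0220) while CDK4 passed without vector set A (0.0207). The testis and S-phase cyclin gene CCNA1 rose by 1.27 (SE 0.30), at 2.60 and 2.82 CPM with overexpression and 0.991 and 1.27 CPM with vector. The MNAT1 call was lost without overexpression set A (edgeR adjusted p = 0.119) and that of CCNA1 without set B (0.0914). PKMYT1, which holds CDK1 inactive, fell by 0.85 (SE 0.12), and MNAT1, a subunit of the CDK-activating kinase, fell by 0.80 (SE 0.19). Both lie where most neighbours were lower: of the 50 nearest tested coding genes, 48 around PKMYT1 on chromosome 16 and 49 around MNAT1 on chromosome 14 had log2 values below 0, with medians of -0.63 and -0.89. The part of these regional shifts in both values was not tested.

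Of 13 pocket proteins, E2F and DP factors, 1 was higher and 1 lower (15.4% called), with a median of 0.05. RBL2, which encodes the pocket protein p130, rose by 0.50 (SE 0.13, edgeR adjusted p = 0.0134), and E2F4, the repressive E2F that pairs with it, fell by 0.51 (SE 0.12, edgeR adjusted p = 0.00862). Both calls were lost with either overexpression library left out, with edgeR adjusted p up to 0.0982 for each gene, and that of RBL2 also without vector set B. RB1 was at 92.1 and 106 CPM with overexpression and 89.9 and 94.3 CPM with vector (log2 difference 0.11, SE 0.12, edgeR adjusted p = 0.626). Of 20 S-phase genes driven by E2F, 1 was higher and 3 were lower (20% called), with a median of -0.13. Log2 values lay below 0 for 15 and above 0 for 5, while 8150 of all 16106 tested genes lay above 0. Some of the 15 turned sign with a library left out. The replicative helicase gene MCM6 fell by 0.66 (SE 0.12, edgeR adjusted p = 0.00129), the thymidylate synthase gene TYMS by 0.51 (SE 0.12) and MCM5 by 0.43 (SE 0.12). The median over the 50 neighbours of MCM6 on chromosome 2 was -0.44. Around TYMS on chromosome 18, 21 of 29 neighbours had log2 values below 0, with a median of -0.20. Around MCM5 the median was 0.02. The part of these shifts was not tested. With either overexpression library left out, 1 S-phase gene and 0 genes of the pocket protein list were called. MCM6 kept its call in all 11 alternatives, while edgeR adjusted p reached 0.136 for TYMS and 0.293 for MCM5.

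Of 23 tested genes of the DNA damage and stress response, 4 were higher and 1 was lower (21.7% called), with a median of 0.08. GADD45A, a growth arrest gene, was at 188 and 139 CPM with overexpression and 55.7 and 70.3 CPM with vector (log2 fold change 1.37, SE 0.15, edgeR adjusted p = 1.61e-05). PLK2, a polo-like kinase gene, rose by 0.74 (SE 0.12), the death receptor gene FAS by 0.81 (SE 0.16) and the DNA repair gene XPC by 0.44 (SE 0.13). XPC was outside the naming rule and is named after its value was seen; its call was lost in 3 of 11 alternatives, with edgeR adjusted p up to 0.242. GDF15, a stress-induced secreted factor, was at 53.6 and 36.1 CPM with overexpression and 256 and 137 CPM with vector. It fell by 2.13 (SE 0.23, edgeR adjusted p = 1.17e-05). Of the 50 nearest tested coding genes, 41 around XPC and 35 around GADD45A had log2 values above 0, with medians of 0.18 and 0.14. Medians around PLK2, FAS and GDF15 were 0.05, -0.07 and 0.04. The part of such shifts was not tested.

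Of 15 genes that control breakdown of p27, p21 and D-type cyclins, RNF123, a ubiquitin ligase gene that acts on p27, was higher by 0.42 (SE 0.13, edgeR adjusted p = 0.0423; up to 0.326 over the alternatives, past the threshold in 7 of 11) and 0 were lower (6.67% called, median 0.04). SKP2, the receptor that marks p27 for breakdown, was at 68.2 and 77.4 CPM with overexpression and 81.0 and 99.0 CPM with vector (log2 difference -0.31, SE 0.13, edgeR adjusted p = 0.138; 0.00787 without vector set A). Of 14 tested transcription factors that act on CIP/KIP genes and CDKN2B, MAX, the partner of MYC, fell by 1.11 (SE 0.15, edgeR adjusted p = 0.000125) and 0 rose (7.14% called, median -0.07). That list had 2 calls with DESeq2, with library totals, with no filter and with the filter at 1 CPM, and 3 with either vector library left out. SMAD2, a transducer of TGF-beta signals, was at 87.2 and 97.0 CPM with overexpression and 116 and 119.6 CPM with vector (log2 difference -0.36, SE 0.12). It missed the threshold (edgeR adjusted p = 0.0549; the alternatives gave 0.00957 to 0.493) and passed in 6 of 11 alternatives. MAX lies on chromosome 14, where 49 of its 50 neighbours had log2 values below 0 and the median was -0.90. Around RNF123 on chromosome 3, 36 of 50 were above 0, with a median of 0.19. The part of both shifts was not tested. MYC was at 215 and 171 CPM with overexpression and 137 and 167 CPM with vector (log2 difference 0.35, SE 0.14, edgeR adjusted p = 0.113; 0.00232 without vector set B).

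Of 16 tested neighbours and regulators of the INK4 locus, 1 was higher and 1 lower (12.5% called, median -0.07). CBX7, a polycomb protein gene that represses the locus, rose by 0.59 (SE 0.16, edgeR adjusted p = 0.0209; 0.272 without overexpression set A, the highest over the alternatives, and lost also without vector set B). ETS2, an activator of CDKN2A, fell by 0.80 (SE 0.19, edgeR adjusted p = 0.00834; 0.117 without overexpression set B). MTAP, which neighbours CDKN2A, was at 63.5 and 71.1 CPM with overexpression and 44.4 and 59.2 CPM with vector (log2 difference 0.38, SE 0.14, edgeR adjusted p = 0.0928; 0.000754 without vector set B). In the imprinted domain of CDKN1C, 0 of 8 tested genes passed by edgeR in either direction (median -0.31), 0 passed by DESeq2, and 2 passed with no filter on low counts, 4 without vector set A and 1 without vector set B. The lowest adjusted p-values on that list were those of TSSC4, IGF2 and CD81 (edgeR adjusted p = 0.0572, 0.0818 and 0.101). Their log2 differences were -0.39, -0.75 and -0.32. SLC22A18AS, the tested gene next to CDKN1C, was not on the list and was called lower: it had 10 and 20 reads with overexpression and 54 and 32 with vector (log2 fold change -1.35, SE 0.42, edgeR adjusted p = 0.0421). It was singled out after its values were seen, and reads of an antisense gene and its partner may not be told apart here. KCNQ1OT1, the noncoding RNA of that domain, was at 6.58 and 8.40 CPM with overexpression and 9.01 and 9.46 CPM with vector (log2 difference -0.30, SE 0.19, edgeR adjusted p = 0.356).

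**Figure D5:**
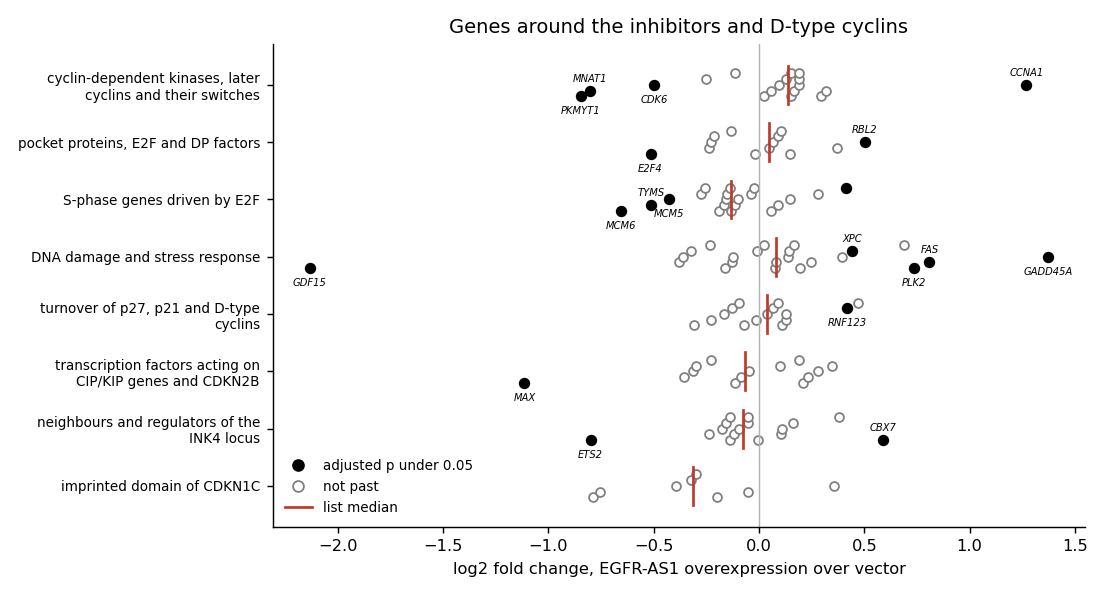
Log2 fold change of the genes around the inhibitors and D-type cyclins, 1 row per list; filled circles had an adjusted p under 0.05, those described in the text are named, and red bars are list medians. Of 127 tested genes 19 were called (15.0%), 9 higher and 10 lower, beside 14.5% of all tested genes.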

How the data were processed

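RNA of NCI-H1703 cells was sequenced from strand-specific libraries, 2 with EGFR-AS1 overexpression and 2 with vector. The deposited values are raw read counts per Ensembl gene. The submitters' processing notes name STAR, HTSeq, DESeq2 and hg19 with no roles or versions, and neither the strand option of the counting nor the annotation release is stated, so reads of overlapping genes may be assigned either way. With 32601449 to 41518275 reads a library, low genes carry the widest errors.

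Counts were filtered (filterByExpr, minimum count 10), scaled with TMM factors and tested with edgeR 4.0.16 (quasi-likelihood F-test, Benjamini-Hochberg adjustment over 16106 genes, calls under 0.05; R 4.3.3). The SE is the log2 fold change divided by the square root of F. DESeq2 1.42.0 and limma-voom (limma 3.58.1), other scalings and filters, each library left out and the set letter as a block were alternatives. The fit was first tested on simulated data. Gene lengths and order came from GENCODE 29 and symbols and promoter stretches from RefSeq tables. The genes and lists were chosen with earlier results of these data known. Named genes were the 10 genes, up to 4 tested genes of each list with the smallest p, and CDK4, CDK6, CDK2, CDK1, RB1, CDKN2B-AS1, MTAP and KCNQ1OT1 whatever their values. Lengths over the longest coding transcript, the wider neighbour window, the counts per list with a library left out and the log2 threshold of 1 were chosen after seeing the data. The endothelial marker PECAM1, listed among the markers, was not analysed here. Some genes that fell under the naming rule are not reported here, though list counts include them.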

Additional observations from a re-analysis of the deposited data

How the results depend on the processing

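CDKN2B and CCND2 kept their direction and call in all 11 alternatives. Of 110 values of the 10 genes under the alternatives, 98 kept direction and call, 2 lost the call, 6 gained it and 4 reversed; outside the leave-outs 69 kept both and 1, CCND3 with the replicate block, gained a call. Leaving out 1 library gave 1271 to 3522 called genes against 2332, 2 to 7 of the 10 genes against 3, and 9 to 32 of the 127 pathway genes against 19. The cause was not tested, and the lone library left in a group was assumed to vary like the other group. The share of higher calls was 61.4% without overexpression set B, against 53.9%. Reversals came only from leaving out a vector library: log2 values ran from -0.11 to 0.20 for CDKN1B, -0.0025 to 1.47 for CDKN1C, -0.43 to 0.068 for CDKN2C and -0.19 to 0.63 for CCND1. With a log2 change of at least 1 also required, 1 of the 10 genes, CDKN2B, was called (5.59% of all tested genes). With the set letter as a replicate block, 3467 genes, 4 of the 10 and 30 pathway genes were called; CCND3 (edgeR adjusted p = 0.0228), CDK1, SKP2, MYC and MTAP passed there, as did 2 genes of the imprinted domain and 4 of the transcription factor list. Deviations of same-lettered libraries correlated at 0.169 across genes, and with 2 pairs and no label calling a letter a batch, the letters were not taken as pairs. With 2 libraries a group, the intervals of CDKN1A, CDKN1B, CDKN1C, CDKN2A, CDKN2C and CCND1 leave changes in either direction possible.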
